A study of Mus musculus with 24 samples.

Results

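The genes described here are 34 genes of sterol and fatty acid synthesis, taken by symbol from a list of pathway members and found among 25844 genes in all. The sterol branch holds 23 of them: 7 genes from acetoacetyl-CoA to farnesyl diphosphate (the mevalonate steps), 11 from squalene to cholesterol, and 5 for regulation and transport. The fatty acid branch holds 11: 5 for acetyl-CoA supply and fatty acid synthesis with their regulator, and 6 for desaturation, elongation and activation. All were protein-coding genes with 1 identifier each. Their RNA was counted by poly-A sequencing in CD1 mouse forelimb buds, taken at gestation day 13 and kept in culture for 3 or 24 h. The medium of the control groups held the solvent DMSO, and that of the other groups held 1 or 10 µM of tert-butylphenyl diphenyl phosphate (BPDP), an organophosphate ester added to materials as plasticizer and flame retardant. Each of the 6 groups, DMSO, 1 µM BPDP and 10 µM BPDP at 3 h and the same at 24 h, had 4 libraries, so 24 libraries were used. The labels name no genetic change in these embryos, and all groups share the culture outside the embryo.

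Cells make cholesterol from acetyl-CoA through mevalonate, isoprenoid diphosphates, squalene and lanosterol, and make fatty acids from acetyl-CoA through malonyl-CoA. Both pathways are under sterol regulatory element-binding proteins (SREBPs), membrane-bound transcription factors: SREBP2, from Srebf2, acts mainly on sterol genes, and SREBP1, from Srebf1, acts more on fatty acid genes. When sterols are low, the escort protein SCAP carries SREBPs to the Golgi, where proteases release the active part, and INSIG proteins hold SCAP in the endoplasmic reticulum when sterols are high. In the limb, cholesterol is also attached to hedgehog proteins, and inborn defects of late cholesterol synthesis enzymes such as DHCR7 come with limb malformations.

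SREBPs bind sterol regulatory elements, usually beside sites for the factors NF-Y (the CCAAT box) and Sp1 (the GC box). The promoter stretches of 5 sterol genes are shown because 4 of these genes were higher with 10 µM BPDP at 24 h and the fifth, Hmgcs1, held the only match to the sterol regulatory element core among the members with a sequence. They come from RefSeq on GRCm38.p6 (mm10) and read 5′ to 3′ on the strand of the gene. Each ends just before the RefSeq start or the gene start of the authors' annotation, whichever lies further upstream. Capitals mark every match, on either strand, to the CCAAT box (CCAAT, or ATTGG), the GC box (GGGCGG, or CCGCCC) and the sterol regulatory element core (TCACNCCAC), and matches that run past the end of a stretch are left in lower case.
Insig1: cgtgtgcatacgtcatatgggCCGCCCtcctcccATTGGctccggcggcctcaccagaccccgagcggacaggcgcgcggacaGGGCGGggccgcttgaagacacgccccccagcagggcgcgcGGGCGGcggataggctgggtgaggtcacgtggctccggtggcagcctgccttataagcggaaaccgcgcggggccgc
Lss: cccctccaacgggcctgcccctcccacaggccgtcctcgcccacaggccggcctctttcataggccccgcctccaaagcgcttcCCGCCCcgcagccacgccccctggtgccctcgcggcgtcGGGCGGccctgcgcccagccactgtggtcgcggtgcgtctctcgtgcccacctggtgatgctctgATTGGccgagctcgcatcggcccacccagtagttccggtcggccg
Sc5d: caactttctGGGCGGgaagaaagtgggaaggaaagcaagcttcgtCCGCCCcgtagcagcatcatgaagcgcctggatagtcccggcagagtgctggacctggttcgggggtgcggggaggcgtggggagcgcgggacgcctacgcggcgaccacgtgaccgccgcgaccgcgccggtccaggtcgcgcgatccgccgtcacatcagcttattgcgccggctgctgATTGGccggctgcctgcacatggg
Srebf2: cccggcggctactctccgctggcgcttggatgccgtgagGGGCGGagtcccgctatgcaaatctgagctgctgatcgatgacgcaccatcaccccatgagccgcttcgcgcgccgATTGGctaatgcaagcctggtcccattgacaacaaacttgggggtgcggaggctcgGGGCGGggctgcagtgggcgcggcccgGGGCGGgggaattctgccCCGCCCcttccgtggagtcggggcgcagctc
Hmgcs1: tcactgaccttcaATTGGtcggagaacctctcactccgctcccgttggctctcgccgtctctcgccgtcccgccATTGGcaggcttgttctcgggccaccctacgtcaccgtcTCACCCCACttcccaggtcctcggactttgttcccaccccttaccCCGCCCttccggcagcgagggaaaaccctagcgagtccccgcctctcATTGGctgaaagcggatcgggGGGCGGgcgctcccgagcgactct
The stretches lie at chr5:28071162-28071362 (+) for Insig1, chr10:76531355-76531587 (+) for Lss, chr9:42264301-42264550 (-) for Sc5d, chr15:82147019-82147265 (+) for Srebf2 and chr13:119690101-119690350 (+) for Hmgcs1.

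A RefSeq window of 300 bases, from 250 before to 50 after the start, was found for 27 of the 34 genes, 19 of the sterol and 8 of the fatty acid branch. Some genes, such as Dhcr7 and Srebf1, had several windows. A gene was counted when any of its windows held a match, so genes with more windows had more chances. A CCAAT box was in 17 of 19 sterol genes (89.5%) and in 5 of 8 fatty acid genes (62.5%). It was in 41.1% of the 27025 genes with a window and 42.2% of the genes tested for expression. The GC box was in 18 of 19 sterol genes (94.7%) and in 5 of 8 fatty acid genes (62.5%). Of all genes 38.2% held it, and of the tested ones 67.8%. The sterol regulatory element core matched in Hmgcs1 alone, 137 bases before the start. That is 1 of 19 sterol and 0 of 8 fatty acid genes, against 1.44% of all genes. A match is a run of letters and not a binding site, and windows without one say only that these letters are absent there.

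Total counts per library were 14165947 to 20823058, and all 34 genes passed the filter on low counts in every comparison. A level is in CPM, the count relative to library size with TMM scaling over the 24 libraries, and is given as mean ± SD (n = 4) unless single libraries are listed in the order of replicates 1 to 4. Differences are log2 fold changes with their standard error (SE), tested with edgeR's quasi-likelihood test, and a gene was called higher or lower when its Benjamini-Hochberg adjusted p over all tested genes was under 0.05. The forelimb gene Tbx5 lay at 189.5 to 304.9 CPM and the limb mesenchyme gene Prrx1 at 346 to 519.8 CPM, while the hindlimb genes Tbx4 and Pitx1 lay at 14.9 to 23.4 and 1.93 to 12.4 CPM. The second principal component of all genes (11% of variance) set replicates 1 and 2 apart from replicates 3 and 4 in each of the 6 groups. Since the labels name no separate litter or culture for each replicate, p-values measure the spread between these libraries, which may be technical. In such bulk samples fewer cells of a type and less RNA per cell cannot be told apart.

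Per length of transcript, the genes spanned a wide range in the 3 h controls. Scd2, a stearoyl-CoA desaturase, had the highest level at 172 RPKM (the CPM per kilobase of gene length), followed by Fdps (farnesyl diphosphate synthase) at 64.1, Acat2 at 55.8 and Fads2 at 53.1. The lowest were Lss at 3.76, Idi1 at 3.55, the acetyl-CoA synthetase gene Acss2 at 3.19 and Hsd17b7 at 2.92. Among the regulators, Srebf2 was at 43.1 RPKM, Srebf1 at 18.1, Scap at 16.1, Insig1 at 13.97 and Insig2 at 6.95. Scd1 and Scd2 are close paralogs, as are Acat2 and Acat3, so their reads may have been shared between copies.

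In the DMSO cultures 14 of 23 sterol and 5 of 11 fatty acid genes were higher at 24 h than at 3 h, and whether the branches differ in this was not tested. This comparison follows the cultured limb bud over time without BPDP. No gene of either branch was called lower, and the median log2 fold change was 0.59 in the sterol and 0.34 in the fatty acid branch. Among all 15640 tested genes 5.45% were called higher and 4.1% lower, with a median of 0.00923. The 2 groups did not overlap, with 24 h above 3 h, for 15 sterol and 5 fatty acid genes, against 8.14% of all genes, and the reverse held for 0 members and 8.6% of all genes. The log2 fold changes of Lss, Fdps and Insig1 were 1.04, 0.97 and 0.98 among replicates 1 and 2 alone, and 1.02, 1.03 and 0.45 among replicates 3 and 4.

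**Figure D1:**
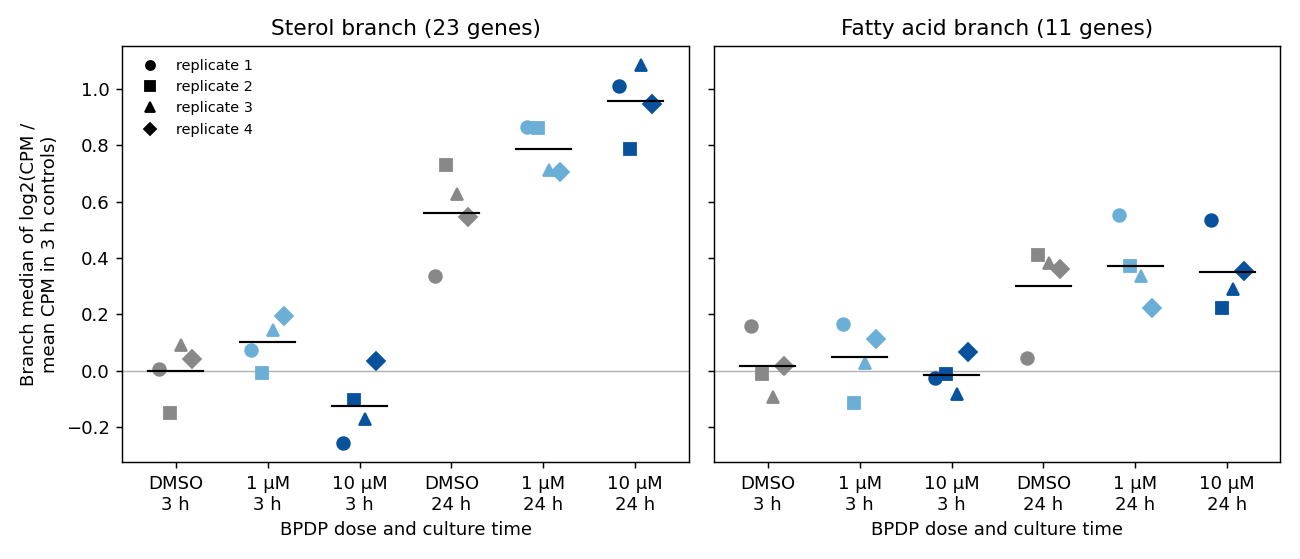
Each point is 1 library: for the sterol branch (23 genes, left) and the fatty acid branch (11 genes, right), the median over the genes of log2(CPM over the mean CPM in the 3 h controls), by dose and time. Bars are group means. The sterol medians lay between 0.34 and 0.73 in the 24 h DMSO libraries and between 0.79 and 1.09 in the 24 h libraries with 10 µM, while the fatty acid medians of these groups overlapped.

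Among the mevalonate steps, Fdps and Idi1, whose product isomerizes isopentenyl diphosphate, were about 2 times as high at 24 h. Fdps was at 84.4, 63.4, 79.6 and 90.6 CPM in the 3 h controls and at 116, 173, 192 and 155 CPM in the 24 h controls (1.01, SE 0.15, adjusted p = 0.00158). Idi1 was at 12.4, 9.68, 10.3 and 10.6 CPM at 3 h and 16.7, 25.2, 23.6 and 20.1 CPM at 24 h (1.00, SE 0.158, adjusted p = 0.00165). In both genes every 24 h library lay above every 3 h library, and replicate 1 was the lowest at 24 h. Hmgcs1, the cytosolic HMG-CoA synthase, rose from 135 ± 13.9 to 216 ± 26.99 CPM (0.69, SE 0.109, adjusted p = 0.00182). Mvd, mevalonate diphosphate decarboxylase, rose from 43.4 ± 7.28 to 66.2 ± 10.5 CPM (0.61, SE 0.14, adjusted p = 0.0146). The kinase genes Mvk and Pmvk and the thiolase gene Acat2 were not called, with log2 fold changes of 0.32, -0.00182 and 0.01.

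Between squalene and cholesterol 8 of 11 genes were higher at 24 h. Lss, lanosterol synthase, had the largest log2 fold change of the 34 genes, from 26.5, 28.3, 29.6 and 20.9 CPM at 3 h to 47.3, 64.9, 55.2 and 46.9 CPM at 24 h (1.03, SE 0.136, adjusted p = 0.000528). Msmo1, a methylsterol oxidase that removes methyl groups at carbon 4, was at 34.8, 31.7, 41.3 and 40.96 CPM at 3 h and 52.7, 85.7, 77.8 and 71.9 CPM at 24 h (0.96, SE 0.143, adjusted p = 0.00124). For both, the lowest 24 h library lay above the highest 3 h library. Nsdhl, the dehydrogenase that acts with Msmo1, and Tm7sf2, a sterol C14 reductase, both rose by 0.81, from 24.7 ± 3.43 to 43.3 ± 9.49 CPM and from 13.2 ± 1.7 to 23.02 ± 5.3 CPM. Dhcr7 (7-dehydrocholesterol reductase, 0.61), Cyp51 (lanosterol demethylase, 0.59), Sc5d (sterol C5 desaturase, 0.55) and Fdft1 (squalene synthase, 0.52) were the others. Fdft1 overlaps the antisense gene Ctsb, which had a mean of 404 CPM against 86.5 CPM for Fdft1 and was itself higher at 24 h (0.60, adjusted p = 0.011), and the part of its reads was not tested. Tm7sf2 overlaps Vps51 on the same strand over 532 bases. Vps51 had a mean of 35.4 CPM against 19.4 CPM for Tm7sf2 and was at -0.12 over time (adjusted p = 0.547). The part of Vps51 reads was not tested either. Sc5d was the least firm, with an adjusted p of 0.0484 that rose above 0.05 in 6 of 8 fits that each left out 1 library (all but those without replicate 1 at 3 h or replicate 3 at 24 h) and reached 0.154. Squalene epoxidase (Sqle, 0.33), Hsd17b7 (0.53) and Ebp (0.09) were not called.

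Of the regulators and transport genes, Insig1 and Stard4, a sterol carrier, were higher at 24 h. Insig1 was at 30.05, 32.4, 44.2 and 44.1 CPM at 3 h and 51.8, 70.7, 53.7 and 66.1 CPM at 24 h (0.69, SE 0.148, adjusted p = 0.0105). Stard4 went from 28.9 ± 1.55 to 44.4 ± 5.31 CPM (0.62, SE 0.11, adjusted p = 0.00335). The libraries of the 2 times did not overlap in either gene. Srebf2 was at 227, 210.0, 219 and 205 CPM at 3 h and 239, 288, 259.6 and 250.3 CPM at 24 h, which did not overlap, yet its adjusted p was 0.0735 (0.27, SE 0.0904). Insig2 was at 21.9, 16.7, 20.8 and 15.6 CPM at 3 h and 29.4, 19.2, 22.1 and 20.8 CPM at 24 h, with overlap (0.29, SE 0.164, adjusted p = 0.298). Scap lay at 68.7, 62.3, 70.02 and 70.2 CPM at 3 h and 71.00, 68.7, 70.8 and 64.3 CPM at 24 h, also with overlap (0.02, SE 0.0859, adjusted p = 0.891).

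In the fatty acid branch the genes called over time were Srebf1 and 4 of the 6 genes of desaturation, elongation and activation. Scd1 was at 60.8, 51.3, 43.7 and 47.7 CPM in the 3 h controls and 122, 95.8, 81.6 and 82.7 CPM in the 24 h controls (0.91, SE 0.14, adjusted p = 0.00145). Srebf1 was at 89.04, 78.2, 71.6 and 71.9 CPM and 158, 129, 107 and 103 CPM (0.69, SE 0.133, adjusted p = 0.00579). In both genes the times did not overlap and replicate 1 was the highest library at each time. Scd2 rose from 936 ± 129 to 1383 ± 158 CPM (0.57), the delta-6 desaturase gene Fads2 from 80.02 ± 3.16 to 109 ± 11.6 CPM (0.45) and the acyl-CoA synthetase gene Acsl3 from 55.99 ± 3.76 to 73.9 ± 5.53 CPM (0.41). The adjusted p of Scd2 rose above 0.05 without replicate 2, 3 or 4 of the 3 h controls (at most 0.0759), and that of Acsl3 without replicate 2 or 3 of the 3 h controls (at most 0.0586), so that the branch had 3 to 7 calls over these fits. The lowest count, 3, came without replicate 2 or replicate 3 of the 3 h controls, and the highest, 7, without replicate 1 of the 24 h controls. Utp14b, which overlaps Acsl3, was at 0.47 (adjusted p = 0.0574), and Rai1, antisense to Srebf1 over 109 bases, at 0.18 (adjusted p = 0.378). Gss, antisense to Acss2 over 22544 bases, was at -0.05 (adjusted p = 0.876), with a mean of 18.1 CPM against 12.2 CPM for Acss2. The enzymes of the synthesis itself were not called: acetyl-CoA carboxylase (Acaca, 0.13), fatty acid synthase (Fasn, 0.08), ATP citrate lyase (Acly, 0.32) and Acss2 (0.13).

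Markers of cell types moved over the same time in the control cultures. Between 3 and 24 h 5 of 6 cartilage, 5 of 6 muscle, 6 of 7 macrophage and 3 of 6 epidermis markers were called higher, and 6 of 6 dividing cell, 2 of 5 endothelium, 2 of 5 Schwann cell, 1 of 5 erythroid and 1 of 7 limb mesenchyme markers (Msx2) lower. The summed level of the cartilage markers went from 3634 to 4945 CPM at 3 h to 6376 to 9773 CPM at 24 h, and that of the dividing cell markers from 825 to 922 CPM to 492 to 545 CPM. Adipocyte markers, of a cell type rich in lipid synthesis, summed to 14.0 to 26.2 CPM at 3 h and 12.2 to 19.6 CPM at 24 h, with Adipoq, Cidec and Plin1 under 1 CPM in all 4 libraries at 24 h. The part of these cell types in the rise of the sterol and fatty acid genes was not tested.

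With 10 µM BPDP at 24 h, 8 of the 23 sterol genes were higher than in DMSO at 24 h, by 1.31 to 1.62 times, and 1 of the 11 fatty acid genes was, Acsl3. No gene of either branch was called lower. This fit took no account of the replicate numbers, and with these as a block, described below, Srebf1 was called lower. The comparison asks what the higher dose did after a day in culture. Among all 15508 tested genes 2.77% were called higher and 3.44% lower. The median log2 fold change was 0.34 in the sterol branch, 0.07 in the fatty acid branch and -0.0168 over all genes. By role, 0 of 7 genes of the mevalonate steps (median 0.18), 6 of 11 from squalene to cholesterol (median 0.44) and 2 of 5 of regulation and transport (median 0.24) were called. Of the fatty acid genes, 0 of 5 of synthesis (median 0.03) and 1 of 6 of desaturation, elongation and activation (median 0.21) were. The treated and control libraries did not overlap, with the treated ones above, for 9 sterol and 2 fatty acid genes, against 6.89% of all genes, and the reverse held for 0 members and 7.34% of all genes.

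**Figure D2:**
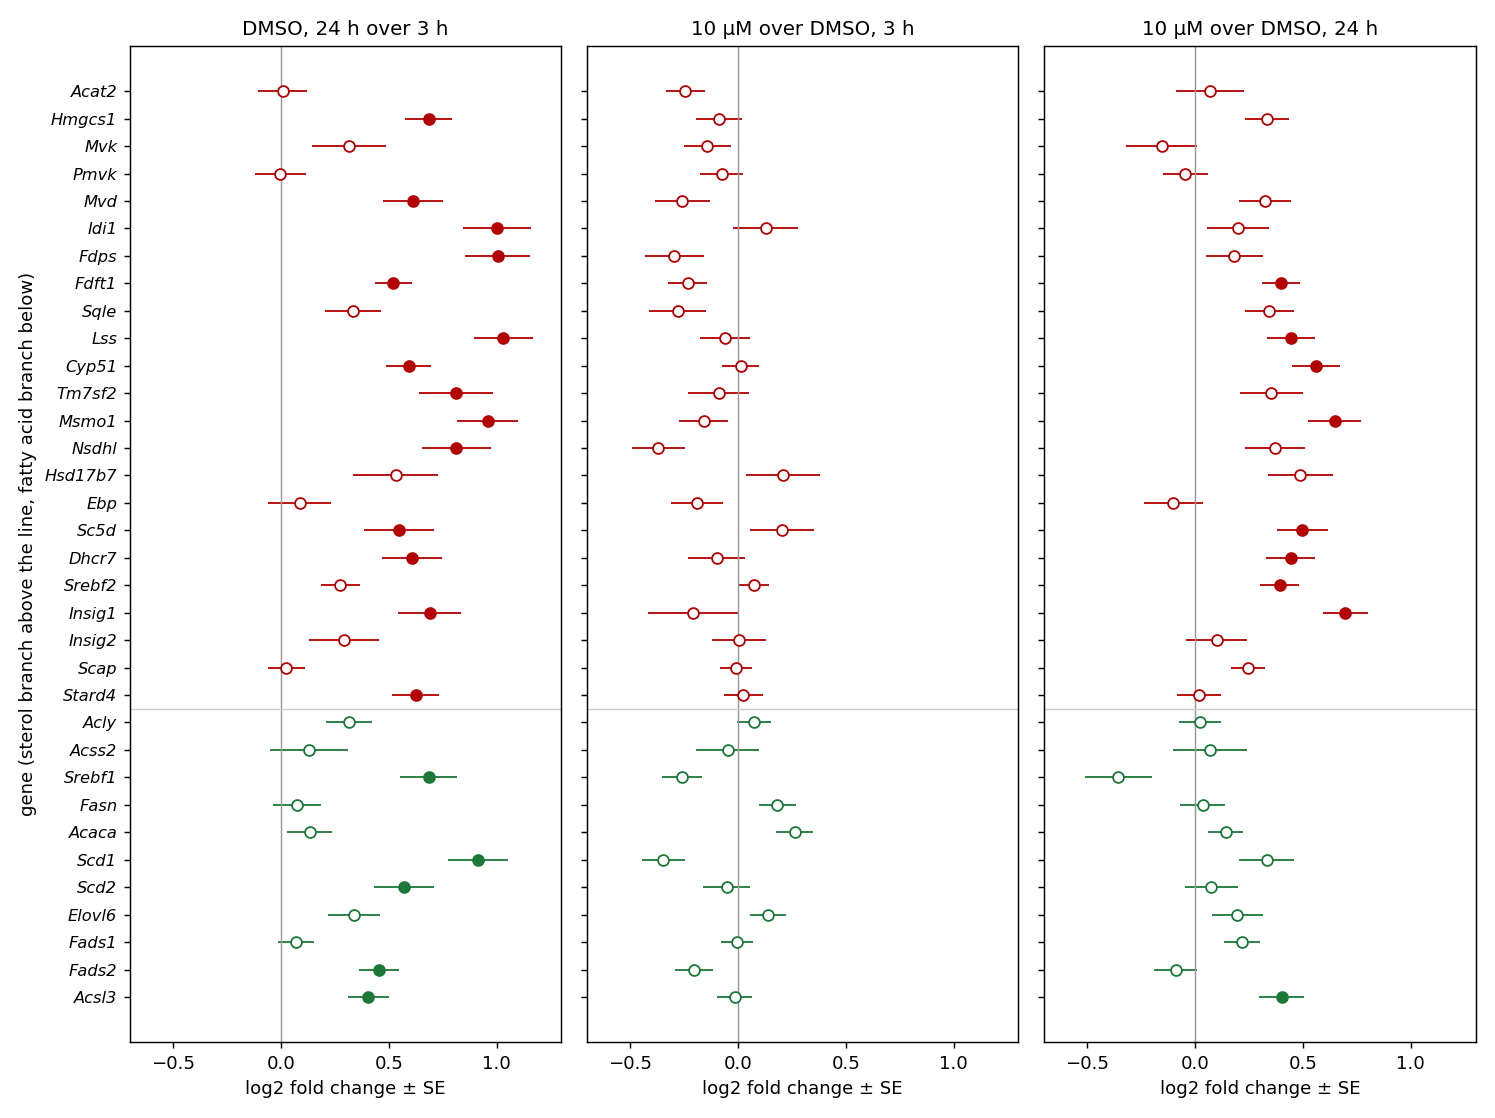
Log2 fold change ± SE of each of the 34 genes in 3 comparisons, with the sterol branch above the grey line and the fatty acid branch below it. Filled points have an adjusted p under 0.05: 14 sterol and 5 fatty acid genes over time in DMSO (left), none with 10 µM at 3 h (middle), and 8 and 1 with 10 µM at 24 h (right).

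Insig1 (chr5:28071363-28078662, +), a direct SREBP target whose product retains the SCAP-SREBP complex, differed most. It was at 51.8, 70.7, 53.7 and 66.1 CPM in the 24 h controls, 74.5, 89.1, 61.7 and 74.8 CPM with 1 µM and 92.04, 101, 98.5 and 98.9 CPM with 10 µM. All 4 libraries with 10 µM lay above every other library at 24 h, and they spread less than the controls (97.7 ± 3.99 against 60.6 ± 9.24 CPM). The log2 fold change of 10 µM over DMSO was 0.70, SE 0.103, with an adjusted p of 0.00171. Insig2, its paralog, was at 29.4, 19.2, 22.1 and 20.8 CPM in the controls and 24.8, 23.4, 22.9 and 26.5 CPM with 10 µM, which overlapped (0.10, SE 0.141, adjusted p = 0.756).

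Srebf2 (chr15:82147266-82205376, +) was at 239, 288, 259.6 and 250.3 CPM in the 24 h controls, 296, 264, 293 and 276 CPM with 1 µM and 359, 307, 347 and 341 CPM with 10 µM. The libraries with 10 µM lay above all others (0.39, SE 0.0916, adjusted p = 0.0246). Scap was at 71.00, 68.7, 70.8 and 64.3 CPM in the controls and 82.8, 85.1, 79.1 and 76.9 CPM with 10 µM. These groups did not overlap either, but the test did not call Scap (0.24, SE 0.0788, adjusted p = 0.0922). Stard4 was at 44.4 ± 5.31 CPM in the controls and 44.8 ± 2.59 CPM with 10 µM, which overlapped (0.02).

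Msmo1 (chr8:64718139-64733792, -) showed the next largest difference. It was at 52.7, 85.7, 77.8 and 71.9 CPM in the 24 h controls, 102, 109, 82.7 and 75.4 CPM with 1 µM and 112, 108, 116 and 114 CPM with 10 µM. Every library with 10 µM lay above every control, while with 1 µM replicates 1 and 2 were near the level of the higher dose and replicates 3 and 4 within the controls' range. The log2 fold change was 0.65, SE 0.121 for 10 µM over DMSO (adjusted p = 0.00738). Cyp51 (chr5:4081145-4104746, -) was at 95.7, 136, 113 and 111 CPM in the controls, 147, 156, 125 and 127 CPM with 1 µM and 176, 141, 179 and 174 CPM with 10 µM (0.56, SE 0.111, adjusted p = 0.00992). Replicate 2 was the lowest of the treated and the highest of the control libraries, and the groups were only just apart. Insig1, Msmo1 and Cyp51 stayed under an adjusted p of 0.05 in all 8 fits that left out 1 library, where their highest values were 0.00939, 0.0285 and 0.0404.

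The other 4 genes between squalene and cholesterol were called with smaller differences. Lss (chr10:76531588-76557138, +) was at 47.3, 64.9, 55.2 and 46.9 CPM in the 24 h controls and 77.8, 73.3, 72.9 and 66.2 CPM with 10 µM (0.44, SE 0.11, adjusted p = 0.032). Sc5d (chr9:42254177-42264300, -) was at 24.3, 28.2, 22.1 and 24.5 CPM in the controls and 34.8, 29.9, 34.4 and 40.4 CPM with 10 µM (0.50, SE 0.12, adjusted p = 0.0276). In both genes the treated libraries lay above the controls, of which replicate 2 was the highest. Dhcr7 (chr7:143823145-143848410, +), the last enzyme of one route to cholesterol, was at 55.2, 75.8, 75.2 and 74.3 CPM in the controls and 93.2, 80.7, 104 and 103 CPM with 10 µM (0.44, SE 0.114, adjusted p = 0.0374). Fdft1 (chr14:63145153-63177793, -), which makes squalene and so commits farnesyl diphosphate to sterols, was at 86.4, 97.7, 103 and 88.2 CPM in the controls and 130.1, 113, 133 and 117 CPM with 10 µM (0.40, SE 0.0869, adjusted p = 0.0168). Again no treated library overlapped the controls, and control replicate 1 was the lowest for Dhcr7 and Fdft1. Fdft1 overlaps the antisense gene Ctsb over 767 bases, and Ctsb itself differed by -0.00900 on the log2 scale, with an adjusted p of 0.982.

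**Figure D3:**
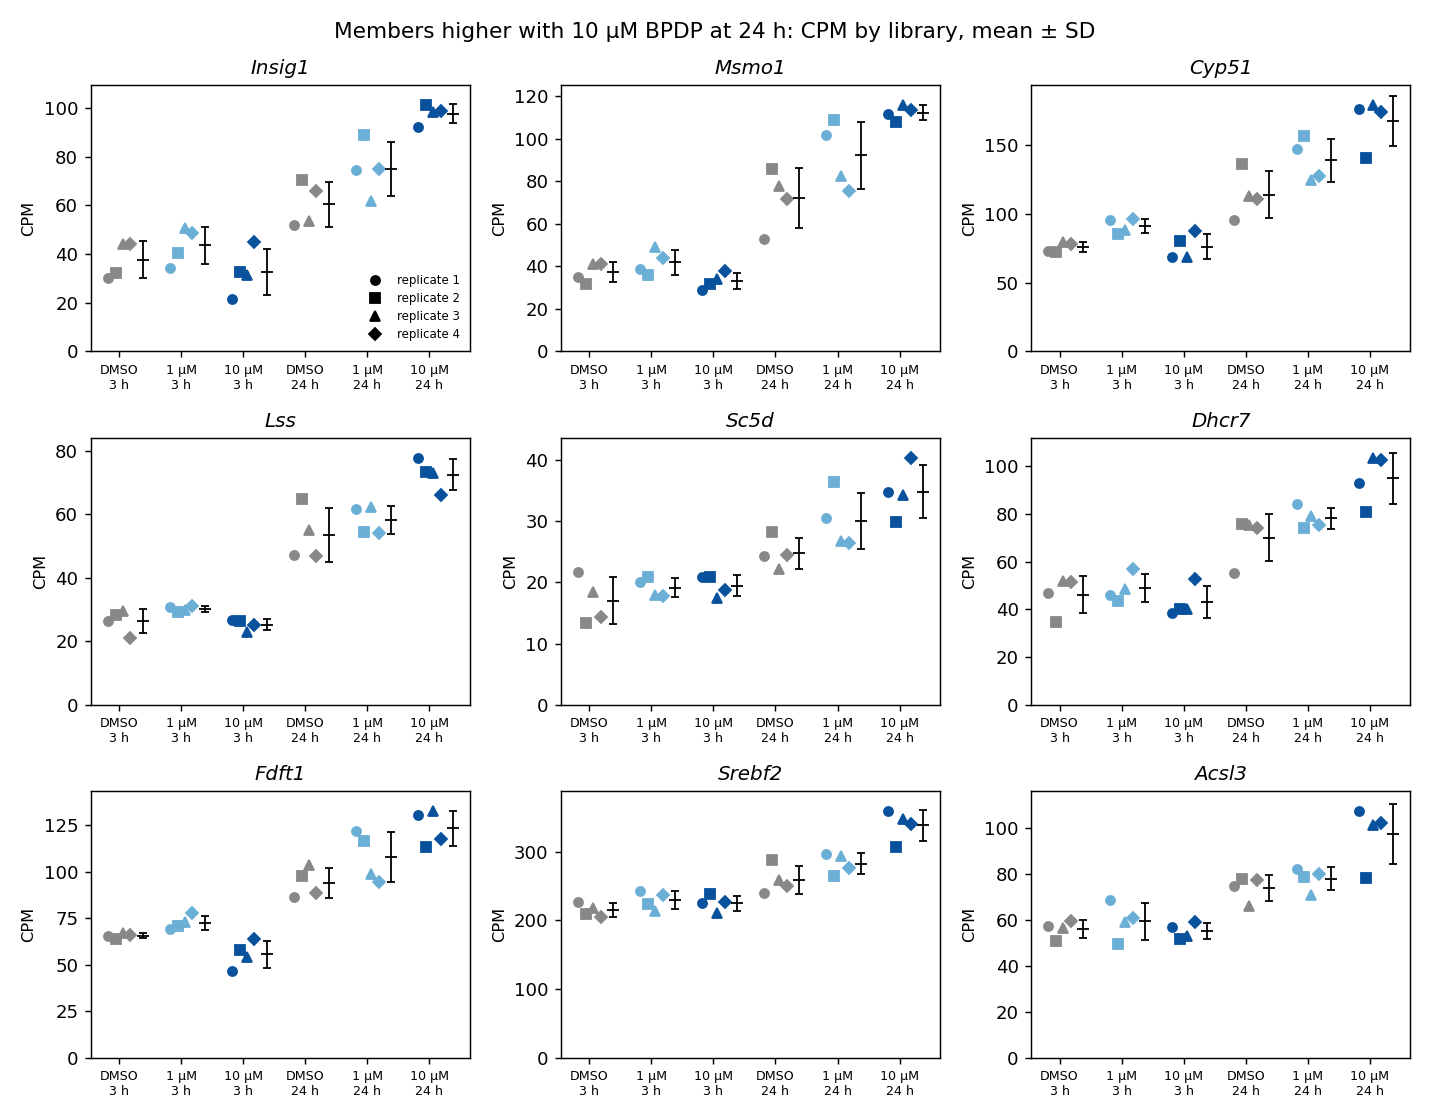
CPM by library in the 6 groups for the 9 genes that were higher with 10 µM BPDP at 24 h, with the group mean ± SD to the right of the points. The symbol gives the replicate number. In all 9 panels the 4 libraries with 10 µM at 24 h lie above the 4 DMSO libraries at 24 h, most narrowly for Acsl3 (78.1 against 77.7 CPM).

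These smaller differences depended on single libraries. The adjusted p rose above 0.05 without 1 library in 3 of 8 fits for Fdft1 (at most 0.0685), 4 for Srebf2 (0.0884) and Dhcr7 (0.121), 5 for Sc5d (0.0999) and Acsl3 (0.127), and 6 for Lss (0.105). All 6 lost the call without control replicate 4 and without treated replicate 1, and all 6 also lost it without treated replicate 3. Without treated replicate 4 it was lost for all but Fdft1, without control replicate 3 for Sc5d and Acsl3, and without control replicate 1 or treated replicate 2 for Lss. The count of sterol genes called was 3 without control replicate 4, without treated replicate 1 or without treated replicate 3, 4 without treated replicate 4, and 12 without control replicate 2. At 24 h the replicate numbers were taken to pair the libraries, and with the number as a block 11 sterol genes were higher. Those added were Hmgcs1, Mvd and Sqle, with log2 fold changes of 0.33, 0.32 and 0.34 and adjusted p-values of 0.072, 0.15 and 0.0956 without and 0.0348, 0.0431 and 0.029 with the block. Among replicates 1 and 2 alone, the log2 fold changes of Insig1, Msmo1, Cyp51 and Srebf2 were 0.67, 0.67, 0.46 and 0.35. Among replicates 3 and 4 these were 0.73, 0.63, 0.67 and 0.45. With 2 libraries a group, 0 sterol genes were called in the first set and 10 in the second. The shares of all genes called in these fits, with the block and without 1 library are not given. These counts therefore cannot be read as a result about the sterol genes alone.

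Without the replicate block, none of the 7 mevalonate genes was called by edgeR's quasi-likelihood test at 10 µM and 24 h. Of them 2 had an unadjusted p under 0.05 in that fit, a threshold for which no share of all genes is given. DESeq2, also without the block, called 1, Hmgcs1 (adjusted p = 0.0304). With the block, Hmgcs1 and Mvd were called higher, as given above. Hmgcs1 was at 187, 249, 224 and 202 CPM in the 24 h controls and 272, 242, 287 and 282 CPM with 10 µM, which overlapped by 1 treated library, replicate 2. Fdps (0.18) and Idi1 (0.20), which showed about a 2-fold difference over time in DMSO, had adjusted p-values of 0.484 and 0.483 with 10 µM. Acat2 (0.07), Pmvk (-0.04) and Mvk (-0.16) were near or below 0. Among the later sterol genes that were not called, Hsd17b7 was at 0.49, Nsdhl at 0.37, Tm7sf2 at 0.35 and Ebp at -0.10.

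In the fatty acid branch Acsl3 (chr1:78657825-78707743, +) was at 74.9, 77.7, 65.8 and 77.2 CPM in the 24 h controls and 107, 78.1, 101 and 102 CPM with 10 µM (0.40, SE 0.104, adjusted p = 0.0376). Treated replicate 2 lay just above the highest control, and the other treated libraries well above it. Acsl3 shares 13475 bases with Utp14b on the same strand, which had a log2 fold change of 0.06. Srebf1 was at 158, 129, 107 and 103 CPM in the controls and 123, 89.96, 91.7 and 82.3 CPM with 10 µM, lower in the treated library of each replicate number but with overlapping groups (-0.36, SE 0.155, adjusted p = 0.216, or 0.00942 with the block). Scd1 was at 122, 95.8, 81.6 and 82.7 CPM and 134, 107, 126 and 111 CPM, higher in each treated library than in the control of the same number (0.33, SE 0.126, adjusted p = 0.155, or 0.0257 with the block). With the block the branch thus had 3 calls, Acsl3 and Scd1 higher and Srebf1 lower. Fads1, the delta-5 desaturase gene, was at 151, 168, 146 and 168 CPM and 184, 169.5, 184 and 193 CPM, groups that did not overlap, without a call (0.22, adjusted p = 0.153).

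No enzyme of fatty acid synthesis itself was called at this dose and time. Fasn was at 294 ± 37.7 CPM in the controls and 299.7 ± 17.1 CPM with 10 µM (0.03, SE 0.103, adjusted p = 0.9). Acly (0.02), Acaca (0.14) and Acss2 (0.07) had similarly small log2 fold changes, and not called either were the elongase gene Elovl6 (0.20), Scd2 (0.07) and Fads2 (-0.09). Whether the sterol and fatty acid branches differ in their response was not tested beyond these counts and medians.

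**Figure D4:**
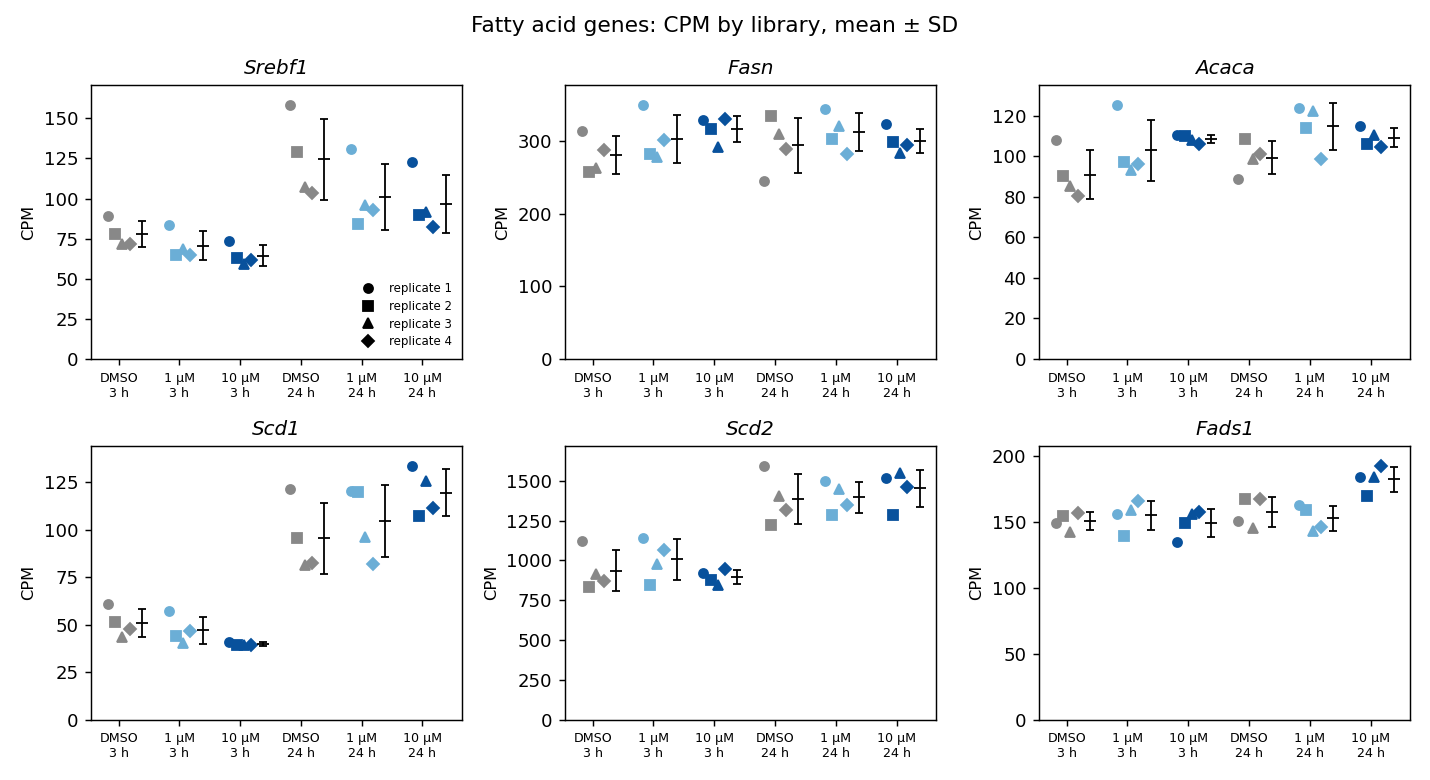
CPM by library in the 6 groups for Srebf1, Fasn, Acaca, Scd1, Scd2 and Fads1, with the group mean ± SD to the right of the points. Replicate 1 is the highest Srebf1 and Scd1 library in every group, and the Fads1 libraries with 10 µM at 24 h lie above the DMSO libraries at 24 h.

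Cell type markers also moved with 10 µM BPDP at 24 h. Called lower were 6 of 7 macrophage markers (summed level 52.3 to 77.6 CPM against 149 to 229 CPM in DMSO), 6 of 6 dividing cell markers (247 to 285 against 492 to 545 CPM), 3 of 5 endothelium markers (126 to 148 against 201 to 244 CPM), 2 of 6 epidermis markers (814 to 1244 against 1321 to 2157 CPM) and 2 of 7 limb mesenchyme markers. None of 6 cartilage markers was called, though their sum was 9091 to 12052 CPM against 6376 to 9773 CPM. None of 5 Schwann cell markers was called either (75.5 to 89.7 against 67.9 to 95.1 CPM), nor was any of 6 muscle, 5 erythroid, 2 hindlimb or 3 measured adipocyte markers. Their part in the differences of the sterol and fatty acid genes was not tested. The adipocyte markers Adipoq, Cidec and Plin1 were under 1 CPM in all libraries of both groups.

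At 3 h no sterol or fatty acid gene was called with 10 µM BPDP, and 16 of 23 sterol genes had a log2 fold change below 0. By edgeR's quasi-likelihood test 0 of 23 and 0 of 11 genes passed, DESeq2 called 0 and 0 as well, and 3 and 4 genes had an unadjusted p under 0.05. The share of all genes at that unadjusted threshold is not given. Among all 15520 genes 0% were called higher and 0.00644% lower at the adjusted threshold. The medians were -0.09 in the sterol branch, -0.02 in the fatty acid branch and -0.0048 over all genes. The summary of each library put sterol replicate 1 lowest at -0.26 and replicate 4 highest at 0.03. Of the 34 genes, Fdft1 and Scd1 alone had treated libraries that all lay below the controls, against 4.38% of all genes, and 0 members lay above them, against 4.98%. Fdft1 was at 65.6, 63.8, 67.2 and 66.01 CPM in the 3 h controls and 46.4, 58.01, 54.4 and 63.6 CPM with 10 µM (-0.23, SE 0.0905, adjusted p = 0.238). Scd1 was at 60.8, 51.3, 43.7 and 47.7 CPM and 41.1, 39.3, 39.4 and 39.4 CPM (-0.35, SE 0.0999, adjusted p = 0.138, or 0.0494 once the split of replicates 1 and 2 from 3 and 4 was a term of the fit). The treated Scd1 libraries were within 2 CPM of each other. Insig1, which differed most at 24 h, was at 30.05, 32.4, 44.2 and 44.1 CPM and 21.5, 32.7, 31.4 and 44.8 CPM at 3 h, with overlap (-0.21, SE 0.21, adjusted p = 0.686).

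The difference of 10 µM from DMSO was then compared between 24 and 3 h in 1 fit of all 24 libraries. As a signed value it was higher at 24 h for 4 sterol genes and 1 fatty acid gene, and lower for none. Among 16691 genes 0.983% were higher and 1.61% lower. The medians of this change were 0.42 and 0.12, and -0.0296 over all genes. Fdft1 went from -0.23 at 3 h to 0.40 at 24 h in the fits of each time, a change of 0.63, SE 0.128 with an adjusted p of 0.00364. Msmo1 changed by 0.81, SE 0.187, with an adjusted p of 0.0142. Both kept an adjusted p under 0.05 in all 16 fits that left out 1 library. The changes of Fdft1 and Msmo1 were 0.71 and 0.80 among replicates 1 and 2 alone, and 0.57 and 0.82 among replicates 3 and 4. Cyp51 (0.55, adjusted p = 0.0297), Nsdhl (0.74, 0.0377) and Scd1 (0.68, 0.0478) were called with all libraries. Their adjusted p, however, rose above 0.05 in 9, 11 and 13 of the 16 fits, to at most 0.073, 0.0811 and 0.11. In the fits of each time Nsdhl went from -0.37 at 3 h to 0.37 at 24 h, and Scd1 from -0.35 to 0.33. The sign of these 2 genes thus turned at about the same size, without a call at either time in these fits. The sterol count was 2 without replicate 3 of the 3 h controls, replicate 1 with 10 µM at 3 h, replicate 1 or 4 of the 24 h controls, or replicate 1, 3 or 4 with 10 µM at 24 h, 7 without replicate 2 of the 24 h controls and 8 without replicate 2 of the 3 h controls. Insig1 had the largest change, 0.90, and an adjusted p of 0.0501, which is not a call in this fit. It was called in an alternative fit other than leaving out 1 library, as were Mvd, Sqle, Lss, Dhcr7, Srebf2 and Acsl3. DESeq2 called 7 sterol genes. Of the markers, 6 of 7 for macrophages, 6 of 6 for dividing cells, 3 of 5 for endothelium and 1 of 6 for epidermis changed in the opposite direction, and their part was not tested. The Ctsb gene antisense to Fdft1 changed by 0.18 (adjusted p = 0.624).

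With 1 µM BPDP no gene of either branch was called at 3 or at 24 h. At 24 h edgeR's quasi-likelihood test and DESeq2 each called 0 of 23 sterol and 0 of 11 fatty acid genes. By adjusted p 0.0193% of 15578 tested genes were called higher and 0.0578% lower. Of the members, 5 and 0 had an unadjusted p under 0.05, and the share of all genes at that threshold is not given for either time. The median log2 fold change at 24 h was 0.21 in the sterol branch, with 21 of 23 genes above 0, 0.08 in the fatty acid branch and -0.0137 over all genes. This comparison and that of 10 µM use the same 4 controls, of which replicate 1 was the lowest library for 16 of 23 sterol and 6 of 11 fatty acid genes. Insig1 had a log2 fold change of 0.31, SE 0.131 with 1 µM and 0.70, SE 0.103 with 10 µM, and Msmo1 0.36, SE 0.153 and 0.65, SE 0.121. Hsd17b7, which encodes a reductase of C4 demethylation, was the only gene whose 1 µM libraries all lay above the controls, against 2.13% of all genes, and 0 members lay below them, against 2.04%. It was at 14.6, 23.2, 20.8 and 19.00 CPM in the controls and 28.02, 24.5, 26.8 and 23.6 CPM with 1 µM (0.41, SE 0.146, adjusted p = 0.661). At 3 h, 4 sterol and 0 fatty acid genes had an unadjusted p under 0.05, both tools called 0, and 0% of 15446 genes were called in either direction. The 3 h medians were 0.09 and 0.08, and -0.0113 over all genes. Cyp51, Fdft1 and Stard4 had 1 µM libraries above all 3 h controls, against 1.68% of all genes (0 members lay below, against 1.38%), with log2 fold changes of 0.26, 0.14 and 0.20.

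The 2 doses were compared directly in the fit of all libraries. At 24 h Srebf2 and Fads1 were higher with 10 than with 1 µM, against 1.22% of 16691 genes higher and 2.13% lower. This fit took no account of the replicate numbers. With these as a block, described further below, the fatty acid branch had 2 calls. Srebf2 was at 283 ± 15.2 CPM with 1 µM and 339 ± 22.4 CPM with 10 µM (0.26, SE 0.0739, adjusted p = 0.0457). Fads1 was at 153 ± 9.47 and 183 ± 9.62 CPM (0.26, SE 0.073, adjusted p = 0.0484). Each call was lost in 7 of 8 fits that left out 1 library, all but that without replicate 2 of 10 µM, with adjusted p-values up to 0.145 and 0.145. Groups did not overlap for 5 members higher with 10 µM, Srebf2, Fads1, Scap, Lss and Insig1, and for 1 lower, Pmvk, against 5.06% and 5.76% of all genes. Insig1 libraries with 10 µM all lay above those with 1 µM, and the difference was 0.38, SE 0.171 with an adjusted p of 0.26. At 3 h 0 genes of either branch were called by edgeR's quasi-likelihood test or by DESeq2, with 0% of all genes called by adjusted p. An unadjusted p under 0.05 was found for 11 sterol and 0 fatty acid genes. The share of all genes at that unadjusted threshold is not given, so these 2 counts have no background. The medians of 10 over 1 µM at 3 h were -0.23 and -0.11, and 0.00683 over all genes. For 5 sterol genes (Fdps, Fdft1, Lss, Nsdhl and Stard4) all 10 µM libraries lay below all 1 µM libraries, against 3.16% of all genes, while for 0 members they lay above, against 2.95%.

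Neighbouring pathways were described from separate lists, whose counts stand beside 2.77% of all genes called higher and 3.44% lower with 10 µM at 24 h, and 5.45% and 4.1% over time. With 10 µM at 24 h, 1 of 8 genes for SREBP processing and sterol-linked steps was higher, the retinol dehydrogenase gene Rdh11 (0.54, SE 0.111, adjusted p = 0.0116), and the SREBP protease genes Mbtps1 and Mbtps2 were at 0.02 and 0.28 without a call. Of 10 genes of the LXR pathway and sterol efflux or storage, 1 was lower, the sterol exporter gene Abcg1 (-1.12, SE 0.214, adjusted p = 0.00864). None of 9 isoprenoid use genes (median -0.05), 16 lipogenic and glycerolipid genes (median -0.03) or 18 fatty acid oxidation genes (median -0.05) was called. Over time in DMSO, 6 of 16 lipogenic and glycerolipid genes were higher (median 0.27), among them Acsl1 (0.96), Lpin1 (0.82), Acsl4 (0.73) and Me1 (0.73). Of the LXR and efflux genes 2 of 10 were higher over time, Apoe (1.25) and Abca1 (0.85), and of the first list 1 of 8, the acetoacetyl-CoA synthetase gene Aacs (0.74). Among fatty acid oxidation genes 1 of 18 was higher, Cpt1a (0.46), and of the isoprenoid use genes 0 of 9. The counts were not tested against those shares.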

How the data were processed

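Poly-A RNA was sequenced from 24 libraries in 6 groups of 4, assigned from the sample titles. Per the submitters' processing notes, CASAVA 1.8, STAR 2.5, HTSeq 0.6.1, DESeq2 (version given as 2) and mm10 were used; strandedness is not given in the sources used here, so antisense reads cannot be told apart. The authors deposited raw read counts per gene and library, with gene lengths in bases, in 5 pairwise tables. The 399144 counts that occur in several tables were compared and 0 of them differed, so the tables were joined by gene identifier. Their 50 other columns, FPKM per library and means of groups, stayed unused. No 2 libraries of a group were near copies (lowest chi-square per degree of freedom 4.91).

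Tests used edgeR 4.0.16 (robust quasi-likelihood, TMM, filterByExpr with minimum count 10 and minimum total 15) in R 4.3.3, on the 8 libraries of 2 groups, or as contrasts in 1 fit of all 24 libraries for dose against dose and for effects between times. Benjamini-Hochberg adjustment ran over all tested genes. Alternatives were RLE size factors, DESeq2 1.42.0, no filter, the other choice of libraries, a replicate block, a term for or fits within replicates 1 and 2 and replicates 3 and 4, and leaving out each library. RPKM was computed from the counts and the deposited gene lengths. The edgeR test of 10 µM against control at 24 h was also run on simulated counts with known changes, and the other steps were not.

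All 34 genes could be named, with values per library for called genes and SREBP regulators, and up to 4 called or 2 other genes of each neighbouring list. Members, lists and tests were chosen with earlier results of these data known. Replicate numbers were taken to pair libraries where residuals of all same-numbered pairs correlated above 0.1, which held at 24 h (10 µM and control 0.139 to 0.308, 1 µM and control 0.128 to 0.287, the 2 doses 0.142 to 0.273) and between doses at 3 h (0.106 to 0.229).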

Additional observations from a re-analysis of the deposited data

Results flagged for a closer look

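The lowest or highest of 4 libraries stood far from the other 3 in 10 of 216 groups examined, where chance gives about 1 in 20. In the 24 h controls replicate 1 was lowest for Dhcr7 (55.2 CPM, others 74.3 to 75.8) and for the median of the fatty acid branch (log2 0.0452 over the 3 h controls, others 0.36 to 0.41). With 10 µM at 24 h Cyp51 was lowest in replicate 2 (141 CPM, others 174 to 179). With 10 µM at 3 h Dhcr7 was highest in replicate 4 (52.8 CPM, others 38.7 to 40.3) and Scd1 in replicate 1 (41.1 CPM, others 39.3 to 39.4). The remaining 5 were libraries with 1 µM at 3 h. Mvd (38.01 CPM, others 51.2 to 52.3) and Scap (60.4 CPM, others 68.4 to 69.8) were lowest in replicate 2, and Insig2 was lowest in replicate 1 (14.3 CPM, others 18.6 to 19.2). Stard4 was highest in replicate 4 (36.6 CPM, others 31.9 to 32.5) and Acaca in replicate 1 (125 CPM, others 93.1 to 97.4).

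As a signed value, the log2 difference of 10 µM from DMSO was higher at 24 than at 3 h for 5 genes by the test of that change itself. These were Msmo1 (0.81), Nsdhl (0.74), Scd1 (0.68), Fdft1 (0.63) and Cyp51 (0.55). For all of these but Cyp51 it turned from negative at 3 h to positive at 24 h in the fits of each time. For Nsdhl and Scd1 it did so at about the same size, without a call at either time in these fits.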

How the results depend on the processing

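None of the 62 log2 fold changes called with all libraries or in an alternative other than leaving out 1 library changed sign in any alternative. They were picked by calls in fits of these same libraries, so their kept sign is no separate check. Of the 210 others 83 changed sign, 64 of them in the fits within a set of replicates, with log2 fold changes of at most 0.27 in size (10 µM at 24 h: 10 of 18, among them Acat2, Stard4, Acly and Fads2). The cause of these and of the following shifts was not tested. For the alternatives no share of all genes called is given, so the counts below have no background beside them. Fits within replicates 1 and 2 called 0 genes of either branch for 10 µM at 24 h, for time in DMSO, for 10 against 1 µM at 24 h and for the change between times. Within replicates 3 and 4 the fatty acid counts were 2 for 10 µM at 24 h, 3 for 10 against 1 µM and 2 for the change between times, and the sterol count for 10 against 1 µM was 4. With the replicate block the fatty acid branch had 3 calls for 10 µM at 24 h, 2 for 10 against 1 µM at 24 h and 2 for the change between times, where the sterol branch had 7. The block moved no other count by over 1.5 times. A term for the 2 sets of replicates gave 1 fatty acid call for 10 µM at 3 h, 2 for 10 against 1 µM at 24 h and 9 sterol calls for the change between times. DESeq2 gave 7 sterol calls for the change between times, and RLE size factors 0 fatty acid calls. Without the filter, 0 sterol and 0 fatty acid genes were called for 10 against 1 µM at 24 h and 0 fatty acid genes for the change between times, and with the other choice of libraries 10 against 1 µM at 24 h gave 2 and 0.

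Leaving out 1 library gave 3 to 12 sterol and 0 to 2 fatty acid calls for 10 µM at 24 h, 13 to 14 and 3 to 7 for time, 0 to 1 and 0 to 2 for 10 against 1 µM at 24 h, and 2 to 8 and 0 to 2 for the change between times. It gave 0 for every other comparison. For single genes, 487 of these refits kept their side of the threshold, 85 lost and 20 gained a call. With 4 libraries a group, the spread set what could be called: for 10 µM at 24 h Hsd17b7 (0.49, SE 0.15) was not called and Lss (0.44, SE 0.11) was. Same-numbered libraries had residual correlations of 0.0951 to 0.295 for 1 µM and 0.0802 to 0.216 for 10 µM at 3 h, and 0.0767 to 0.296 over time in DMSO, above 0.1 in 3 of 4 pairs each. There the libraries were not taken as paired, and 2, 1 and 3 of 4 replicate numbers correlated best with their own. At 24 h, where they were, this held for 3 of 4 with 10 µM and control and 4 of 4 with 1 µM and control. Between the 2 doses it held for 3 of 4 at 24 h and 1 of 4 at 3 h. The bound of 0.1 thus set which comparisons counted as paired. Whether the split of replicates 1 and 2 from 3 and 4 gives such correlations was not tested.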

Other observations

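Srebf1 and Scd1 had their highest library in replicate 1 in all 6 groups, and Acaca in 5 of 6. Over all 16691 tested genes 0.282% had replicate 1 as the highest library in all 6 groups. Fads1 was highest in replicate 4 in 5 of 6 groups. These genes were picked out after their values were seen.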
